A study of Mus musculus with 8 samples.

Results

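The regions described here are stretches of chromatin in mouse granulosa cells that carried an ATAC-seq peak after hCG and none before it, and whose peak was missing in mice without the progesterone receptor (PGR). They number 2363 of 98245 accessible regions (2.41%). The study profiled 8 libraries in 2 experiments, each library pooled from 2 to 3 mice that were 21 days old and had received 5 IU of eCG (also called PMSG), and each group had 2 biological replicates. In the LH experiment, wild-type F1 mice of strain CBA x C57BL/6 were sampled 46 h after eCG (titled PMSG) or 6 h after a further 5 IU of hCG (titled hCG). In the PR experiment, wild-type (WT) and PR knockout (KO) mice of strain C.129S7(B6)-Pgrtm1Bwo/OmcJ were all sampled after hCG, so that eCG priming was common to every library and hCG to all but the PMSG pair. The time tags of the LH libraries run against their titles (0 h on hCG, 6 h on PMSG), and titles, which the source names bear out, were followed. For the PR experiment the tag of 6 h fits collection after hCG, although the source name calls these cells pre-ovulatory. The labels do not say whether WT and KO mice were littermates. The experiments differ in strain, so a region had to be open after hCG in both strains to qualify.

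The members were chosen by measured values, namely the presence of peaks in the authors' lists. Intervals of all 8 lists on chromosomes 1 to 19 and X were merged where they shared 1 bp or more, and a region qualified if both hCG lists and both WT lists had a peak in it and neither PMSG list nor either KO list did. Both hCG lists and no PMSG list held 14.5% of all regions (14212), and both WT lists and no KO list held 11.2% (10988). Because the rule read every list, the presence pattern of the members is a description and not a finding. In bulk chromatin, fewer cells with a site open and less opening per cell cannot be told apart.

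The progesterone receptor is a ligand-activated transcription factor that the LH surge induces in granulosa cells of preovulatory follicles. It binds hormone response elements in DNA together with other factors, and mice that lack it form follicles that do not rupture. Its known dependants in these cells include secreted proteases, hypoxia-inducible factors and the zinc-finger factor Zbtb16. ATAC-seq marks accessible DNA by the cuts of the transposase Tn5, and most accessible sites far from gene starts are candidate regulatory elements.

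Sequence was at hand for promoters only, as windows from 250 bases before to 50 after the gene starts in RefSeq (GRCm38.p6, the same primary assembly as mm10). Of the 2363 members, 49 overlapped such a window (60 windows of 52 genes). The 5 stretches below are shown because they are promoter DNA that opened with this pattern. All 5 were picked after their sequence was seen, for holding a motif match, so they do not show how common matches are. Those of Gm6093, 1500009C09Rik and Ankrd45 are among the 8 best-ranked members at promoters, of which Gm8013, Gm40898 and Cacna1c held no match to any motif and are not shown. Those of Slc6a13 and C1qtnf3 each hold the hormone response core more than once. Each is the part of the window that lies inside the member, 5′ to 3′ on the gene's strand, with capitals for matches to any motif searched. The stretches lie at chr13:33569268-33569567 (minus strand), chr15:82252271-82252521 (plus), chr1:161142608-161142761 (plus), chr6:121300038-121300337 (plus) and chr15:10952082-10952381 (plus).
Gm6093: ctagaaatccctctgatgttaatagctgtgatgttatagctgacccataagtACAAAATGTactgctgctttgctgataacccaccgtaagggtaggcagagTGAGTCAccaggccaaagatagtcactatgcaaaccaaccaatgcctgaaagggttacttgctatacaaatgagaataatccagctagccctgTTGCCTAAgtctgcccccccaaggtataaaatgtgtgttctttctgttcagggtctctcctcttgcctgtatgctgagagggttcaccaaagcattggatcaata
1500009C09Rik: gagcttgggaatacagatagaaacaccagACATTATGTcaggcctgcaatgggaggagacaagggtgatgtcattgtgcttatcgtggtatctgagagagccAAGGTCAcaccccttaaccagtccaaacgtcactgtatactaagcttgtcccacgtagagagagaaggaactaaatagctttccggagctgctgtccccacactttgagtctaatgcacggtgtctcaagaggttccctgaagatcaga
Ankrd45: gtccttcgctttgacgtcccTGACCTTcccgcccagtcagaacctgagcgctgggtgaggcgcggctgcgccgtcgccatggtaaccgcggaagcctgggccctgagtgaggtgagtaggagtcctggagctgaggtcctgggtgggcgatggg
Slc6a13: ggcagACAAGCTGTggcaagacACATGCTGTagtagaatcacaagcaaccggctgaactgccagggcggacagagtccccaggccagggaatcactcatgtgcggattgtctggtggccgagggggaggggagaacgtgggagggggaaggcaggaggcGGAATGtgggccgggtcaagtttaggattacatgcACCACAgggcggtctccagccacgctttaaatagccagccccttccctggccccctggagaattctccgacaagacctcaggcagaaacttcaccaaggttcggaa
C1qtnf3: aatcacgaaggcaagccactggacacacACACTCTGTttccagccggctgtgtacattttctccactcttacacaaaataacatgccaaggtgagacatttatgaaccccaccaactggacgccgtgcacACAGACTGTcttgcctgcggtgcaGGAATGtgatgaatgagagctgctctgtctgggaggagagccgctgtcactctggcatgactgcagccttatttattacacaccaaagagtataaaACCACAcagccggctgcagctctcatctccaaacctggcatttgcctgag

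The motifs were searched on both strands, and matches were allowed to overlap. The hormone response core, ACANNNTGT, is the spaced palindrome that steroid receptors such as PGR bind. RUNX was searched as TGTGGT. AP-1, the dimer of FOS and JUN proteins, was searched as TGANTCA. The letters for NR5A receptors, which drive steroid synthesis, were AAGGTCA. The letters for GATA factors were AGATAA. C/EBP proteins, which respond to the LH surge, were given TTGCNNAA. TEAD factors, the partners of YAP, were given GGAATG. The Gm6093 stretch holds a hormone response core whose first base lies 198 bases before the start, with an AP-1 match at 148 and a C/EBP match at 55 bases before it. The stretch of 1500009C09Rik holds the core 172 bases and an NR5A match 99 bases before the start. Slc6a13, which encodes a transporter of GABA and taurine, has cores at 245 and 228 bases before its start, and C1qtnf3, which encodes a secreted C1q-like protein, at 222 and 120. Ankrd45 has an NR5A match at 84 bases before the start of the window shown, or 69 before its other listed start, and no core.

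Over the 60 windows, 10 (16.7%, Wilson 95% interval 9.31 to 28.03) held the hormone response core. The share was 9.48% of 116 windows at hCG-gained regions that both KO libraries held, 4.002% of 15641 windows at any region, and 6.89% of all 32619 windows of this length. When the 99 bases farthest upstream of the start were left out of each window, the shares were 5% (3 windows) for members, 7.76% at KO-held gained regions, 2.31% at any region and 4.25% of all, so the order against KO-held gained regions turned and rests on few windows. In these shorter windows the shares of the other motifs below, for members and KO-held gained regions, were 18.3% and 15.5% for RUNX, 20% and 12.9% for TEAD, 8.33% and 16.4% for AP-1, 8.33% and 3.45% for NR5A, 13.3% and 9.48% for C/EBP and 1.67% and 6.03% for GATA. The order of RUNX therefore turned too. The RUNX letters were in 23.3% (14.4 to 35.4) of the members' windows, 24.1% of those at KO-held gained regions and 16.6% of all. TEAD letters were in 30% (19.9 to 42.5), 18.97% and 14.6%, AP-1 letters in 16.7%, 23.3% and 7.85%, and NR5A letters in 8.33%, 5.17% and 4.71% respectively. C/EBP letters were in 18.3%, 14.7% and 10.9%, and GATA letters in 1.67% (1 window), 11.2% and 11.2%. Base composition differed as well, with a median GC content of 51.3% in the members' windows, 52% at KO-held gained regions and 61.3% at any region, and its part in these shares was not tested. Windows also hold DNA outside the member, and some members have more than 1 window. In an alternative chosen after seeing the data, only DNA inside the region was read, as 1 stretch per region (49 members, median 200 bases; 106 KO-held gained regions, 296 bases; 11982 regions of any kind, 300 bases). The core was then in 8 members (16.3%, 8.51 to 29.04), 8.49% of KO-held gained regions (4.53 to 15.4) and 3.64% of any. TEAD letters were in 8 members (16.3%), below the share by windows, and in 12.3% and 10.8% of the others. For members and KO-held gained regions, RUNX letters were in 22.4% and 18.9%, AP-1 letters in 16.3% and 21.7%, NR5A letters in 8.16% (4 members) and 1.89%, C/EBP letters in 14.3% and 13.2%, and GATA letters in 2.04% and 10.4%. RUNX was again the higher in members here, unlike in the whole windows. In 29 regions open in PMSG, hCG and WT and missing in KO, NR5A letters were in 3 (10.3%, 3.58 to 26.4). The NR5A share was therefore not particular to the members. The core was also in 3 of these 29 (10.3%, 3.58 to 26.4). TEAD letters were in 13.8% of them, and RUNX, AP-1, C/EBP and GATA letters in 6.90% each. A match describes letters and not a bound site.

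The members were peaks of low to middling height. The authors' fold, the enrichment of a summit over the peak caller's background and a linear ratio within one library, had a median of 6.33 in hCG replicate 1, 6.85 in hCG replicate 2, 5.50 in WT replicate 1 and 6.59 in WT replicate 2. The highest member reached 16.0, 17.0, 16.5 and 20.5 in these libraries. In the 5780 hCG-gained regions that both WT and both KO libraries held, the medians were 8.58, 8.87, 8.31 and 10.5, and 8.31 and 6.24 in KO replicates 1 and 2. Members were thus smaller peaks than the KO-held gained regions in each of the 4 libraries that held them. The 704 regions open in PMSG, hCG and WT and missing in both KO libraries had medians of 6.58, 7.06, 5.97 and 5.85, so low height was not particular to the members. The called intervals were also narrower, with medians of 247 and 265 bp in hCG and 191 and 244 bp in WT for members, against 405 and 403 bp in hCG and 363 and 427 bp in WT for KO-held gained regions.

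**Figure D1:**
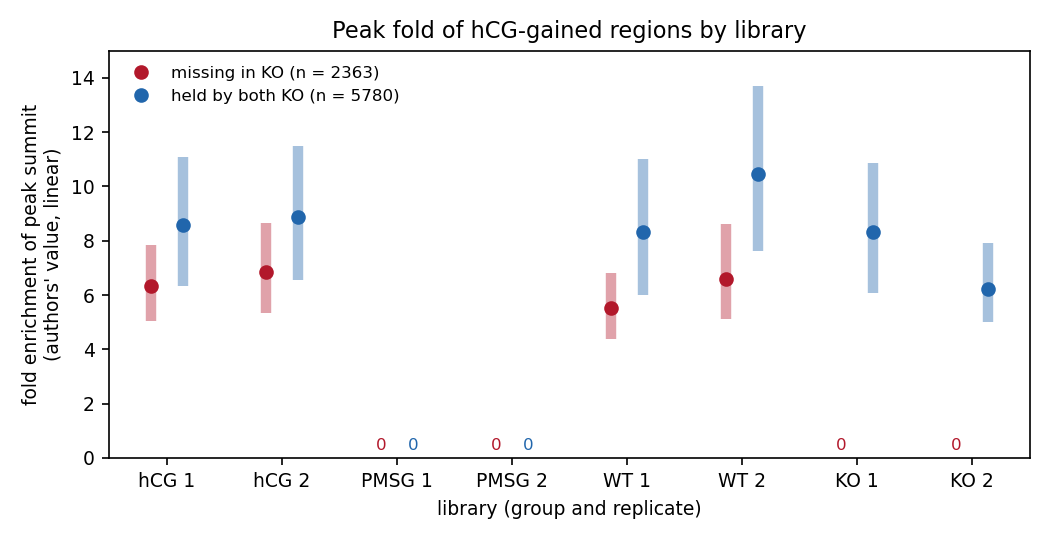
The vertical axis is the authors' linear fold of the peak summit and the horizontal axis the library; points are medians and bars span the lower to the upper quartile over regions, in red for the 2363 members and in blue for the 5780 gained regions held by both KO libraries. A 0 marks libraries that hold none of the set by the rule, and in each hCG and WT library the red median lies below the blue one.

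Where the peaks were called, the 4 libraries placed them alike. The summits of hCG replicate 1 and hCG replicate 2 in the same member lay a median of 12 bp apart, those of the WT replicates 11 bp, and those of hCG against WT libraries 14 to 15 bp. Between 87.5% and 92.2% of members had summits within 50 bp of each other in a pair of libraries. The fold of a member correlated across the 2363 regions at a Pearson r of 0.89 between hCG replicates, 0.83 between WT replicates and 0.70 to 0.72 between hCG and WT libraries on the log2 scale, which is a description over regions that share libraries and background. For gained regions held by KO, the corresponding values were 0.94, 0.90 and 0.82 to 0.86.

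The lists hold no peak with a −log10 q under 10, which is the edge of the rule. In 406 members (17.2%) the weakest of the 4 peaks had a −log10 q under 15, and the median of the weakest peak was 22.9. In 130 members all 4 peaks were at 50 or more. Just outside the rule, 2665 regions differed from it only by a peak in KO replicate 1 (median fold 6.46, median −log10 q 31.5) and 345 only by a peak in KO replicate 2 (5.07 and 19.8). A peak in PMSG replicate 1 or 2 alone kept 148 and 210 regions out, and a missing peak in WT replicate 1 kept out 1359, in WT replicate 2 125, in hCG replicate 1 388 and in hCG replicate 2 717. The border with KO replicate 1 was the most crowded, and the median fold of the KO peaks there lay within the range of the members' own medians (5.50 to 6.85). The nearest peak of a PMSG or KO library lay a median of 6.41 to 6.99 kb away, and between 1.06% and 1.95% of members had one within 500 bp. By the rule no such peak overlapped a member, and these distances were not compared with those of other regions.

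Of the 11153 hCG-gained regions held by both WT libraries, 2363 (21.2%, Wilson 95% interval 20.4 to 22.0) were missing in both KO libraries, 2665 (23.9%) were held by KO replicate 1 alone, 345 (3.09%) by KO replicate 2 alone and 5780 (51.8%) by both. Among 39856 regions open in PMSG as well as in hCG and WT, 704 (1.77%, 1.64 to 1.90) were missing in both KO libraries. The share missing in KO was higher for gained regions in every rank class below the top. This is a description, since the rule read the same lists. Regions also open in PMSG had to be called in both PMSG lists as well, and the part of ease of calling was not tested. In the class between rank percentiles 20 and 30, 35.3% (32.7 to 37.9) of gained regions were missing in KO, against 6.64% (5.70 to 7.73) of those also open in PMSG. Between 60 and 70 the shares were 11.7% and 0.821%, between 80 and 90 they were 2.66% (20 of 753 regions) and 0.0822%, and among the 353 gained regions above 90 none was missing in both KO lists.

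**Figure D2:**
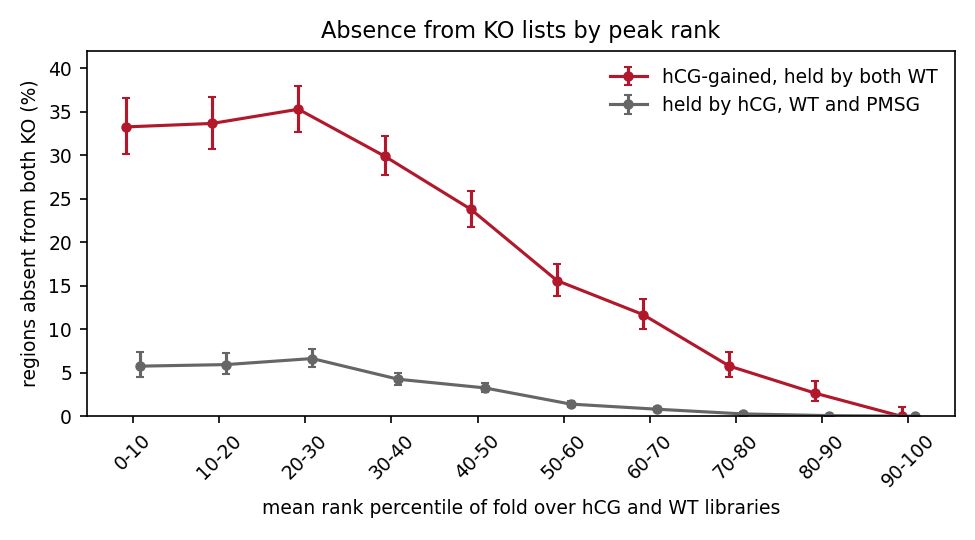
The horizontal axis gives classes of the mean rank percentile of the fold over the hCG and WT libraries (100 is the tallest peak) and the vertical axis the percent of regions absent from both KO lists, with Wilson 95% intervals. Gained regions (red) run from 33.3% in the lowest class to 0% in the highest and lie above regions also open in PMSG (grey) up to the class from 80 to 90.

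The KO and WT libraries differ in the number of peaks, at 58851 and 55654 in KO against 80137 and 84313 in WT, with 57992 to 65567 in the LH libraries. With the best 55654 peaks by fold taken from every list, 870 regions met the rule (1.03% of 84376 regions), where hCG-only regions made up 13.6% and WT-only regions 3.63%. Of the 2363 members, 866 had their 4 hCG and WT peaks among these best peaks while absent from the whole PMSG and KO lists. These 866 are called the taller members below. They had median folds of 7.85 and 8.64 in the hCG libraries and 7.25 and 9.11 in the WT libraries. Among gained regions held by both WT libraries in equal lists, 12.7% (11.9 to 13.5) were missing in both KO, against 0.761% (0.673 to 0.860) of regions also open in PMSG. These shares too are a description, since the rule read the same lists.

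In a comparison of WT with KO, hCG-only regions were taken from the LH lists alone, 14473 of them, and read in the PR libraries. Of these, 2361 (16.3%) overlap a member, and for members the rule itself set presence in WT and absence in KO, so the difference is not independent of the rule. WT replicates 1 and 2 held 79.9% and 91.3% of these regions, and KO replicates 1 and 2 held 63.4% and 44.7%. Both WT libraries lay above both KO libraries, by 31.5 percentage points on average (two-sided exact permutation p = 0.333, the smallest that 2 against 2 libraries allow). With equal lists the shares of 11611 such regions were 62.0% and 77.0% in WT and 67.5% and 49.3% in KO. The genotypes then overlapped, since KO replicate 1 lay above WT replicate 1, and the difference of 11.1 points lay between the SDs of the groups (10.6 in WT, 12.9 in KO, n = 2 each, exact permutation p = 0.667). For regions open in both LH groups, WT minus KO was 4.35 points with whole lists and -1.27 with equal lists.

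Each replicate was also read against regions chosen without it. When the rule was applied without KO replicate 2, 2709 regions qualified and KO replicate 2 held 12.8% (11.6 to 14.1) of them. When it was applied without KO replicate 1, 5057 regions qualified and KO replicate 1 held 53.3% (51.9 to 54.6). The KO libraries thus differed from each other: KO replicate 2 lacked most of what KO replicate 1 lacked, whereas KO replicate 1 held more of what KO replicate 2 lacked than it was missing. On the WT side, WT replicate 2 held 94.98% of 2489 regions chosen without it and WT replicate 1 held 63.6% of 3731. In equal lists the held shares were 14.4% in KO replicate 2, 63.3% in KO replicate 1, 88.3% in WT replicate 2 and 52.3% in WT replicate 1. The left-out KO replicate 1 thus held a larger share of its regions in equal lists than the left-out WT replicate 1 did of its own.

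The 20 members with the highest mean rank had folds from 9.24 to 20.5 and lay between 8.56 and 625 kb from the nearest start of a protein-coding gene. Of these, 11 lay inside a gene. The first, at chr7:82785972-82786540 (mm10), lay 8.12 kb outside Efl1, a GTPase of ribosome maturation, with folds of 12.02 and 15.3 in hCG and 15.1 and 16.8 in WT. The second lay 8.66 kb outside Hmgcs1, the synthase of the cholesterol pathway that makes HMG-CoA, at chr13:119681051-119681696, with 14.4 and 14.0 in hCG and 14.1 and 15.01 in WT. A region inside Itgb6, the integrin beta 6 subunit, had the highest fold of any member, 20.5 in WT replicate 2, beside 12.2 in WT replicate 1 and 12.8 and 14.7 in hCG. The other members of this group inside genes were in Heatr4, Dipk1a, Crk (a signalling adaptor), Gid4, Tox, Dcp1a (mRNA decapping), Fhit, Sncaip, Smyd1 and Ap3d1. Those outside genes included members nearest to Mreg, Tab2 (an adaptor of TAK1 signalling), Plppr4, Ptbp2 (a splicing regulator), Rnf180 and Mllt3. Their folds in hCG and WT libraries overlapped in range.

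Few members lay at gene starts. The midpoint was within 1 kb of a start for 47 of 2363 members (1.99%, Wilson 95% interval 1.499 to 2.63), close to the 2.13% (1.79 to 2.53) of gained regions held by KO, against 5.26% (3.84 to 7.16) of regions open in PMSG and missing in KO and 14.4% of all regions. Between 5 and 20 kb from a start lay 31.8% of members, against 25.2% of KO-held gained regions and 24.3% of all. More than 200 kb away lay 5.63%, 10.6% and 7.87%. Members lay inside a protein-coding gene in 62.2% of cases (60.2 to 64.1) against 62.5% of all regions, 62.1% of regions open in PMSG and missing in KO and 55.9% (54.6 to 57.2) of KO-held gained regions. The members' share was thus that of all regions. The median distance to a start was 26.2 kb for members, 33.3 kb for KO-held gained regions and 22.9 kb for all regions. The protein-coding promoters among the best-ranked members at windows were those of Ankrd45, Defb28 (a beta-defensin) and Cacna1c (a voltage-gated calcium channel subunit), and the others were at Gm8013, Gm45086 and Gm40898 besides Gm6093 and 1500009C09Rik. By chromosome, members made up between 1.82% of regions on X and 2.83% on chromosome 9, and within 10 Mb of Pgr on chromosome 9 they were 9 of 351 regions (2.56%, 1.35 to 4.80) against 2.40% elsewhere.

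Most genes with a member had 1. Of 21631 protein-coding genes, 2174 (10.1%) had a member inside them or within 20 kb. Of these, 1829 had 1, 68 had 3 or more, and 3 had 5 or more. Zbtb16 led with 8 members among 27 regions, followed by Pard3 with 7 among 52 and Mbnl1 with 5 among 25. Dip2c, Arhgap26, Psme4, Sparcl1, Lrig1, Sik3, Sipa1l3, Ttc7b and Arhgap28 had 4 each. Several of these genes are long and hold many regions (54 at Sik3, 51 at Arhgap26), and no expected number per gene was computed. The longest run of members with midpoints no more than 50 kb apart was the 8 at Zbtb16, over 132 kb, and 24.2% of members had another within that distance. Among KO-held gained regions the longest run was 9 and 41.3% had such a neighbour. The sets differ in size (2363 members, 5780 KO-held gained regions), and the shares were not adjusted for it.

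Zbtb16, also called PLZF, encodes a zinc-finger transcriptional regulator that responds to several steroid receptors. Its 8 members lay inside the gene (chr9:48651797-48836225), within chr9:48685801-48817826. The tallest by mean rank, at chr9:48685801-48686178, had folds of 7.97 and 10.2 in hCG and 10.2 and 11.2 in WT. The region at chr9:48717943-48718311 had 8.39 and 9.60 in hCG and 8.65 and 12.3 in WT. That at chr9:48817429-48817826 had 9.18 and 8.56 in hCG and 10.3 and 10.8 in WT, and that at chr9:48775595-48775970 had 9.05 and 10.2 in hCG and 7.56 and 7.42 in WT. These 4 were among the taller members, and the other 4 had folds between 3.43 and 6.52. Other sites at the gene had other patterns. Of its 27 regions, 6 were held by all 8 libraries, including the one at the higher-coordinate end (folds between 12.5 and 16.2 in every library). A gained region at chr9:48806480-48807263 was held by both KO libraries with folds of 14.9 and 8.63, beside 15.5 and 15.9 in WT and 14.4 and 13.2 in hCG. In addition, 2 regions open in PMSG, hCG and WT and 1 open in PMSG and WT were missing in both KO libraries. Missing peaks in KO at this gene were therefore not restricted to sites gained after hCG.

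**Figure D3:**
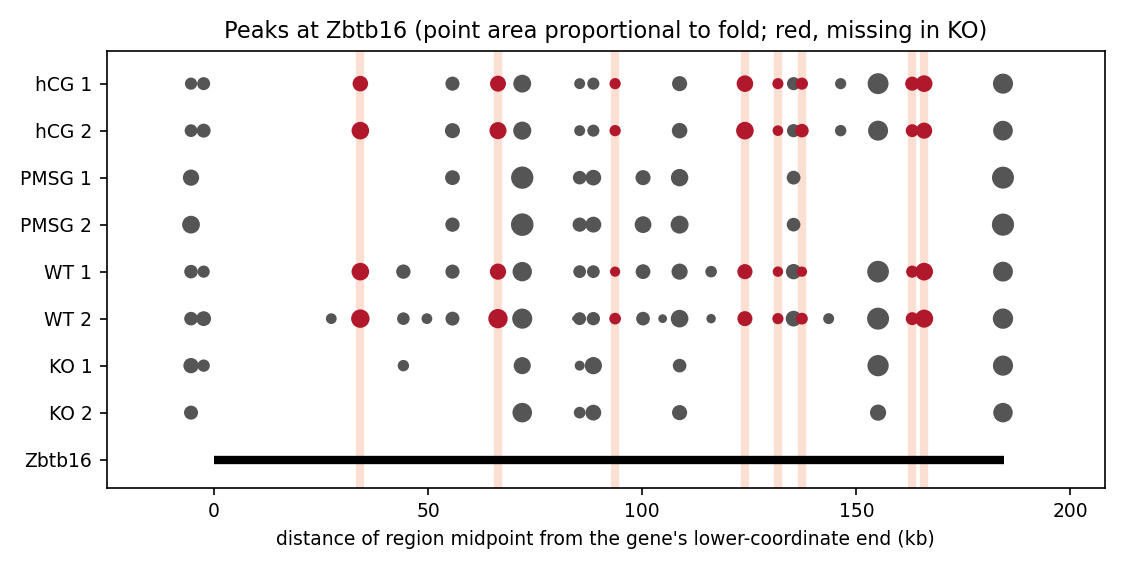
Each row is a library and each point a peak, placed by the distance in kb of its region from the lower-coordinate end of Zbtb16 (black bar), with point area proportional to the authors' linear fold. The 8 members (red, shaded) are present in the 4 hCG and WT rows and absent from the PMSG and KO rows, while 6 regions have a point in every row.

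At other genes the gained sites were missing in KO to different extents. At Mbnl1, a regulator of splicing, with flanks of 20 kb, all 5 gained regions that WT held were missing in both KO libraries, with folds between 4.26 and 11.1 in hCG and 3.47 and 11.1 in WT. The same was true of all 4 at Psme4, a proteasome activator, and all 4 at Sparcl1, a secreted matricellular protein. The tallest at Psme4, at chr11:30844265-30844640, had 12.2 and 13.0 in hCG and 8.66 and 11.1 in WT, and the tallest at Sparcl1, at chr5:104133658-104134020, had 10.1 and 11.7 in hCG and 7.44 and 10.5 in WT. At Psme4 the WT replicates disagreed in 2 members, with 13.6 against 5.85 and 10.7 against 5.16. Pard3, a cell polarity protein, had 5 of the taller members, the most among these 12 genes, and one of them at chr8:127309272-127309710 had 9.49 and 14.0 in hCG and 6.73 and 9.52 in WT. At this gene, 7 of 13 gained and WT-held regions were missing in both KO libraries, 2 were held by KO replicate 1 alone and 4 by both. At Arhgap26, 4 of 12 were missing and 7 were held by both, and at Sik3, a kinase controlled by cAMP signalling, 4 of 11 were missing and 4 held by both. Lrig1, an inhibitor of EGF receptor signalling, had 4 of 8 missing and 2 held by both, as had Dip2c and Ttc7b. Arhgap28 had 4 of 8 missing and 3 held by both, with no taller member, and Sipa1l3 had 4 of 6 missing and none held by both. These genes were named for their number of members, so the counts describe them and support nothing further.

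Gene lists were then read for regions within 20 kb, beside the 2.41% of all regions that are members and the 21.2% of gained, WT-held regions that are missing in both KO libraries. Around 13 PGR-dependent genes, 18 of 142 regions were members (12.7%, Wilson 95% interval 8.17 to 19.1). Of the 27 gained and WT-held regions there, 18 (66.7%, 47.8 to 81.4) were missing in both KO libraries, 2 were held by KO replicate 1 alone and 7 by both. Without Zbtb16 the counts were 10 of 115 regions (8.70%, 4.79 to 15.3) and 10 of 17 gained and WT-held regions, so the share was above the overall one with and without that gene. The list names genes known to depend on PGR and an earlier look at these data had shown its WT-only peaks, so it is no independent evidence of direction.

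**Figure D4:**
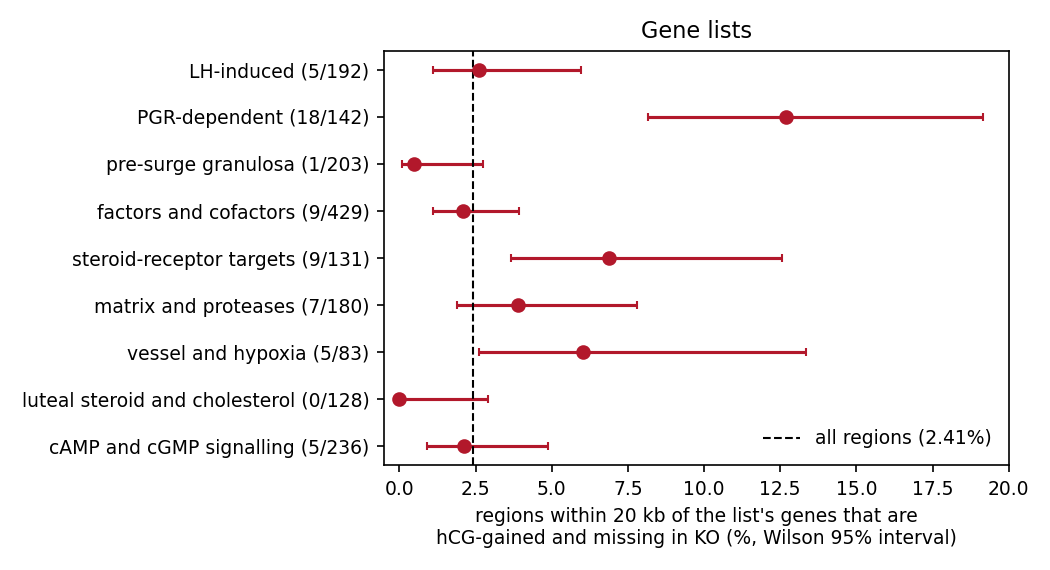
The horizontal axis is the percent of regions within 20 kb of a list's genes that are members, with Wilson 95% intervals, and each row is a list with its members over its regions. The dashed line marks the 2.41% of all regions, and the PGR-dependent list (12.7%) lies farthest above it.

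Of the 13 PGR-dependent genes, 8 had a member. Epas1, which encodes the hypoxia-inducible factor HIF-2alpha, had 3, of which the third lay 17.4 kb outside the gene. That at chr17:86789621-86790654 had folds of 7.68 and 9.28 in hCG and 7.09 and 7.43 in WT, that at chr17:86811873-86812338 had 5.39 and 7.65 in hCG and 5.35 and 6.35 in WT, and that at chr17:86850813-86851013 had 8.35 and 10.2 in hCG and 7.44 and 6.84 in WT. These were all the gained and WT-held regions at Epas1. Hif1a, the gene of the related factor HIF-1alpha, had a member 13.0 kb outside it with 6.59 and 6.86 in hCG and 6.63 and 8.23 in WT. Vcan, the matrix proteoglycan versican, had 2, with folds between 3.30 and 5.21. The secreted protease Adamts1, which cleaves versican, had 1 of low fold inside the gene, at 2.41 and 2.52 in hCG and 2.38 and 3.31 in WT. The lysosomal protease Ctsl had 1 at 0.14 kb outside the gene (3.51 and 2.77 in hCG, 4.28 and 4.49 in WT), and Snap25, a protein of vesicle fusion, had 1 at 1.97 kb (3.30 and 3.54 in hCG, 4.19 and 4.57 in WT). Il6, a cytokine gene, had 1 at 13.8 kb with 9.37 and 11.7 in hCG and 5.71 and 6.15 in WT. Taller members were found at Zbtb16 (4 of 8), Epas1 (2 of 3) and Hif1a (1), and none at Vcan, Adamts1, Ctsl, Snap25 or Il6. Edn2, Pparg, Adcyap1, Cxcr4 and Prkg2 had no member of any height within 20 kb, though Pparg and Adcyap1 had 1 each within 50 kb. The gained regions held by both KO libraries lay at Prkg2 and Pparg (2 each) and at Edn2, Hif1a and Zbtb16 (1 each).

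Lists with other roles had lower shares of members, and some share genes with the PGR-dependent list. The 10 steroid-receptor targets had 9 members in 131 regions (6.87%), and 9 of their 16 gained and WT-held regions (56.2%) were missing in both KO libraries, but 8 of these members were at Zbtb16. Without Zbtb16 there was 1 in 104 (0.962%, and 1 of 6 gained and WT-held regions), inside Klf9, a Krüppel-like factor induced by steroids. The 10 vessel and hypoxia genes had 5 in 83 (6.02%, 2.60 to 13.3), those of Epas1 and Hif1a and 1 inside Flt1, a receptor of VEGF, with 11.6 and 12.8 in hCG and 7.03 and 10.4 in WT. Of the 8 gained and WT-held regions of that list, 5 (62.5%, 30.6 to 86.3) were missing in both KO libraries. The 19 matrix and protease genes had 7 in 180 (3.89%, 1.90 to 7.81) and 7 of 33 gained and WT-held regions missing in both KO libraries (21.2%), none of them among the taller, at Vcan, Adamts1, Has2 (hyaluronan synthase), Col4a1 and Col4a2 (chains of basement membrane collagen) and Plat (a plasminogen activator). Both shares of this list are near the overall ones, so they are no result about these genes.

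Genes of the LH response, of luteal steroid supply and of the pre-surge granulosa cell had shares of members whose intervals include the 2.41% of all regions. Around 17 LH-induced genes, 5 of 192 regions were members (2.60%, 1.12 to 5.95), 1 each at Has2, Runx1, Runx2, Nrip1 and Adamts1, and of 34 gained and WT-held regions 5 were missing in both KO libraries (14.7%, 6.45 to 30.1) and 24 were held by both. Runx2, a factor of the RUNT family, showed the contrast within a gene, as 11 of its 12 gained and WT-held regions were held by both KO libraries and 1 was missing, at chr17:44770977-44771300 with 7.61 and 7.52 in hCG and 6.77 and 6.70 in WT. Around 11 genes of luteal steroid and cholesterol supply no member was found in 128 regions (Wilson upper bound 2.91%), and of 19 gained and WT-held regions none was missing in both KO libraries (upper bound 16.8%) and 14 were held by both. Hmgcs1, which had a high-ranked member, is not on that list. Around 15 pre-surge granulosa genes, 1 of 203 regions was a member (0.493%, 0.0870 to 2.74), inside Foxo1, and of 25 gained and WT-held regions 1 was missing in both KO libraries (4%, 0.710 to 19.5) and 15 were held by both. The intervals of the luteal and pre-surge lists lay below the overall 21.2%, and that of the LH-induced list included it.

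Among 26 transcription factors and cofactors, 9 of 429 regions were members (2.10%, 1.11 to 3.94). They were at Runx1, Runx2, Fosl2, Gata6, Foxo1, Ncoa1 (a steroid receptor coactivator) and Nrip1 (a nuclear receptor corepressor) with 1 each and at Fosl1 with 2. Those at Ncoa1, Nrip1 and Runx2 were taller members. The member at Nrip1 had 6.84 and 7.07 in hCG and 6.49 and 8.83 in WT, and that at Ncoa1 had 5.19 and 6.78 in hCG and 5.81 and 6.35 in WT. Around 11 genes of cAMP and cGMP signalling, 5 of 236 regions were members (2.12%), at Creb1 (2), Pde4b, Prkar2b and Adcy9. These shares are near the background, so they are no result about these genes.

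The cell type was checked by peaks at or within 1 kb of the starts of marker genes (of either end where no start was given). All 6 granulosa markers (Foxl2, Fshr, Inha, Amh, Cyp19a1 and Nr5a2) had a peak in all 8 libraries. Of 5 immune markers, 1 to 2 had a peak, with Ptprc, Csf1r and Adgre1 at 0 in all 8 lists and Cd68 present in both hCG lists only. Of 4 theca markers 2 to 3 had one, of 4 endothelial markers 2 (Pecam1 and Tek at 0), of 5 stromal and smooth muscle markers 3 to 4 (Lum at 0) and of 4 oocyte markers 1 (Zp3, Bmp15 and Ddx4 at 0). Ptch1, Gli1, Spi1, Cdh5, Kdr, Col1a1, Acta2, Myh11 and Gdf9 had a peak in all 8. Among the genes of the non-granulosa lists, Cdh5, an endothelial cadherin, had 3 members (chromosome 8, folds between 2.85 and 7.91). The part of other cells in these members was not tested. At the start of Pgr itself, WT and LH lists held 1 interval and each KO list held 2 with a gap between them.

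The number of regions that met the rule depended most on how many peaks of each list were read and on KO replicate 1. It was 866 to 870 with equal lists, 2046 with a −log10 q of 20 or more, and 3731 and 5057 without WT replicate 1 and KO replicate 1. Of the 2046 regions, 1474 overlapped a member.

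**Figure D5:**
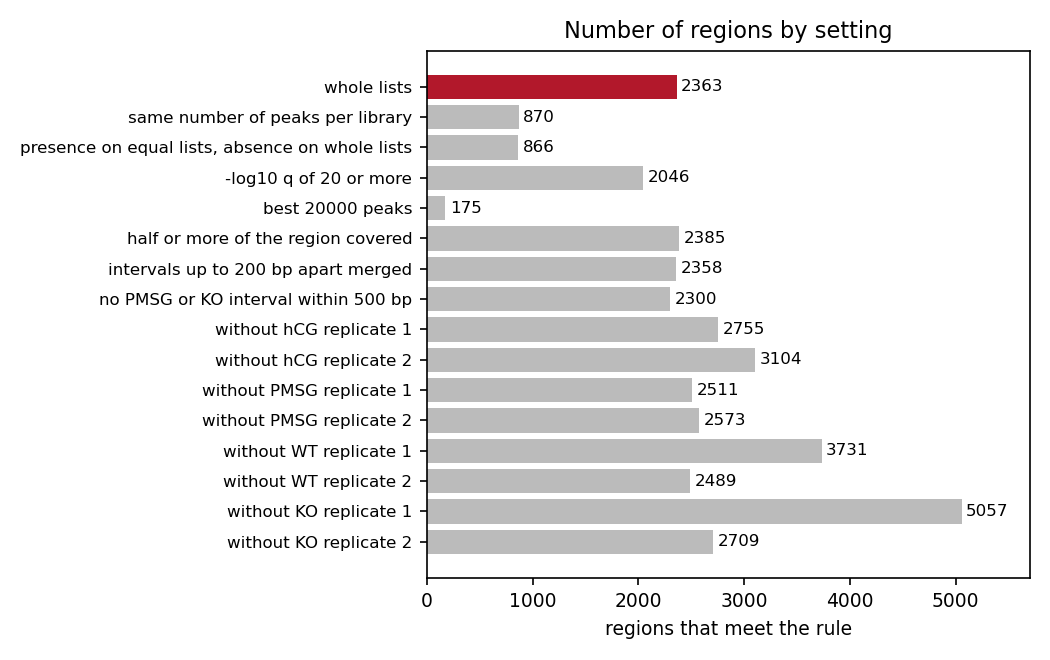
Bars give the number of regions that meet the rule (horizontal axis) with whole lists (red, 2363) and under each alternative (grey), from 175 with the best 20000 peaks of every list to 5057 when KO replicate 1 is left out.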

How the data were processed

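ATAC-seq peak lists of 8 granulosa cell libraries were used, 1 list per library. Bowtie2, MACS2 and the build mm10 are named in the submitters' processing notes, without versions. Roles, parameters, any Tn5 shift and the filter on duplicates are not given in the sources used here. Peak names differ between the experiments, and those of the PR lists mention filtering and marked duplicates, per the file contents. In the lists deposited by the authors, column 7 is the fold enrichment of a summit, a linear ratio within the library, and columns 8 and 9 are −log10 of p and q, with no q value under 10 on that scale. Column 5 of the deposited lists is a score derived from column 9 and was not used. The authors gave no counts, so depth is unknown and the number of peaks limits what can be seen.

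Summits of an interval were combined, keeping the best fold and best −log10 q. Intervals were merged at 1 bp of overlap (Python 3.11.15, numpy 2.4.6, pandas 2.3.3, scipy 1.17.1), a step tested on simulated lists. Ranks are percentiles of fold within a list. Gene starts came from RefSeq (GRCm38.p6) for 17274 of 21631 protein-coding genes, and both gene ends served for the other 4357. No single region was tested. Wilson 95% intervals cover counting error over regions of these libraries only. The exact permutation test compared libraries. Named were the 20 best-ranked members, the 12 genes with most members (ties by members in equal lists, then name), list genes with a member and the 8 best-ranked members at promoters. Members, lists and rules were chosen with earlier results of these data known. Alternatives were equal lists, the best 20000 peaks, −log10 q of 20 or more, other overlap rules and leaving out each library.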

Additional observations from a re-analysis of the deposited data

How the results depend on the processing

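The number of regions that meet the rule was 870 with equal lists, 866 with presence judged on equal and absence on whole lists, and 175 with the best 20000 peaks, of which 14 overlapped a member. Other thresholds and overlap rules gave 2046 to 2385, but similar totals did not always mean the same regions. Of the 2046 with a −log10 q of 20 or more, 1474 overlapped a member. Of the 2385 found when peaks had to cover 50% or more of a region, 1559 did. Leaving out 1 library gave between 2489 and 5057 regions, with 5057 without KO replicate 1 and 3731 without WT replicate 1. The share within 1 kb of a gene start was 1.03% with equal lists, 1.04% with presence alone on equal lists and between 1.93% and 2.59% with a library left out, and 10.2% lay within 5 kb. For hCG-only regions, WT minus KO held shares ran from 22.2 to 40.9 points with a library left out (no test where 1 PR library of a genotype was left), 11.1 with equal lists (exact permutation p = 0.667), 9.88 with the best 20000 peaks (p = 0.667) and 32.0 with a −log10 q of 20 or more. With the replicate number as a block the differences were 16.5 and 46.6 points, mean 31.5 (exact permutation p = 0.5, the smallest that 2 pairs allow), and nothing in the labels ties the numbers across genotypes. The rule read the same WT and KO lists, so none of these differences is independent of it. With whole lists, 2361 of the hCG-only regions overlap a member. Around the PGR-dependent genes, counted gene by gene, 7 members met the rule in equal lists and 20 with flanks of 50 kb. With these wider flanks the pre-surge list had 3 members and the luteal list 1, against 1 and 0 within 20 kb. The LH-induced list had 7, against 5 within 20 kb. In the 19 promoter windows of the taller members, 26.3% held the hormone response core, and 0% without the 99 bases farthest upstream.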
